A study of Mus musculus with 16 samples.

Results

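The comparison described here is the earliest one in the series: AtT-20 cells carrying ER-Pax7 after 12 h of 4-hydroxytamoxifen, against the same cells without the compound (0 h). It was chosen by the labels, as 3 libraries at 12 h and 3 at 0 h out of the 16 libraries of the series, and it covers all genes. AtT-20 is a mouse pituitary tumour line of the corticotrope type, grown in DMEM with 10% FBS. Every cell in both groups carries Pax7 fused to a triple flag tag and to a part of the oestrogen receptor, so the fusion is present at 0 h as well and the groups differ in the compound and its time. Total RNA was depleted of ribosomal RNA and sequenced as paired ends. The other 10 libraries are ER-Pax7 cells at 24 h and 96 h, with 3 libraries each, and AtT-20 cells with constitutive Pax7 or with a Neo control, with 2 libraries each. The labels do not give the promoter of the fusion, do not say whether the cells are 1 clone, and do not name the cultures behind the replicates. The p-values therefore measure the spread between these libraries, and that spread may be technical. No cells without ER-Pax7 were treated with the compound in these samples, so effects of 4-hydroxytamoxifen and of active Pax7 cannot be told apart.

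Pax7 is a paired-box and homeodomain transcription factor that specifies the melanotrope, the pituitary cell that cleaves pro-opiomelanocortin (Pomc) to melanocyte-stimulating hormone, while the corticotrope cleaves the same precursor to ACTH. In melanotropes it acts as a pioneer factor, which opens chromatin at sites that are closed in corticotropes. A protein fused to the hormone-binding part of the oestrogen receptor is held inactive by chaperones until the ligand is added, and can then act on genes within hours.

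Values are scaled exon reads: reads over the exons of each gene, brought to a common library total by the authors and then divided by a library factor computed here. The libraries held 61.4 M to 88.7 M recovered reads (M, mega) at 0 h and 63.5 M to 70.1 M at 12 h. Rn45s, the ribosomal precursor RNA, took 2.35% of the reads of the second 12 h library and 0.787% to 0.922% of the other 5. Of the 9 defining corticotrope genes none was at 0 in all 6 libraries, but Avpr1b, a vasopressin receptor, read 0.712, 0.231 and 0.985 scaled exon reads at 0 h and 0 in each library at 12 h, too few to be tested. The 9 had a summed level of 105600 to 110500 at 0 h and 94210 to 99500 at 12 h. Of 14 genes of other pituitary lineages, 8 were at 0 in all 6 libraries, among them Prl, Tshb and Fshb. Fibroblast markers summed to 23.6 to 32.1 at 0 h and 25.7 to 30.3 at 12 h (with Col3a1 at 0), endothelial markers to 4.91 to 6.05 and 2.61 to 4.64, and haematopoietic markers to 8.97 to 11.2 and 8.76 to 10.6 (with Cd3e at 0). The genes of the fusion were read as a check of the labels. Pax7 stood at 1766, 1717 and 1688 at 0 h and at 1717, 1818 and 1695 at 12 h, and Esr1, whose label takes in the receptor part of the fusion, at 1125, 1161 and 1111 and then 1065, 1222 and 1073. Both groups overlap for both genes, and neither difference was called (limma with Benjamini-Hochberg adjustment, adjusted p = 0.911 and 0.922).

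At 12 h, 992 of 15188 tested genes (6.53%) differed from 0 h: 444 were higher (2.92%) and 548 lower (3.61%) at an adjusted p under 0.05 (limma, one model over the 12 ER-Pax7 libraries). Most of the changes were small, and 29 genes (0.191%) were called with a difference of at least 2-fold. The median difference over all tested genes was 0.00 on the log2 scale. All differences are of log2(value + 1), which understates the change of genes with few reads. Leaving out the second 12 h library gave 871 calls (5.73%), 756 of them shared with the full data. edgeR on the recovered reads gave 950 calls (6.25%), 923 of them shared, and limma with the replicate number as a block gave 1246 (8.2%), 989 of them shared. In bulk RNA, a change in the number of cells of a type and a change of RNA per cell cannot be told apart. The gene lists used below were written with earlier results of these data known. Counts of their called members, set beside the share of all tested genes, are therefore descriptions and not tests.

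**Figure D1:**
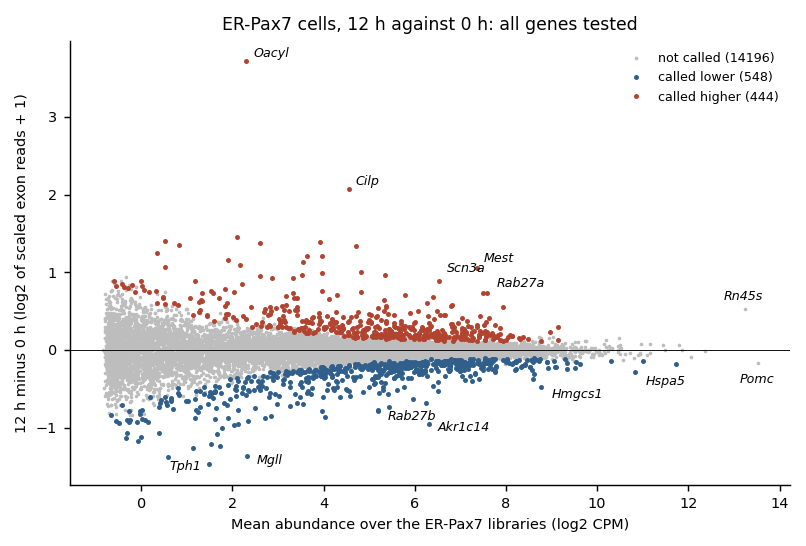
Each point is 1 of 15188 tested genes. The x axis is the mean log2 CPM over the libraries, the y axis the difference of 12 h minus 0 h on the log2 scale. The 444 genes called higher are red, the 548 called lower blue and those not called grey. Most called genes lie within 1 log2 unit of 0, and Oacyl stands apart at 3.72.

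Secreted factors, receptors and signalling enzymes were among the 20 highest rises. Oacyl, a gene of the acyltransferase family, went from 2.01, 1.87 and 0.894 scaled exon reads at 0 h to 38.8, 30.8 and 28.6 at 12 h. Its log2 difference was 3.72 (SE 0.14; limma, adjusted p = 3.23e-13), and the lowest library at 12 h lay far above the highest at 0 h. Cilp, a secreted protein of the cartilage matrix, stood at 38.0, 40.1 and 37.3 before the compound and at 168, 159 and 169 after it, a log2 difference of 2.08 (SE 0.05; adjusted p = 3.58e-16). Among the rises with a small standard error was Mest, an imprinted gene of the hydrolase family, with 620, 617 and 602 at 0 h and 1227, 1330 and 1274 at 12 h (log2 1.06, SE 0.04). Gas6, a secreted ligand of the Axl and Mer receptor kinases, rose from 46.2, 42.5 and 39.1 to 103, 95.4 and 84.3 (log2 1.13, SE 0.08). Kit, the receptor of stem cell factor, rose from 51.1, 64.6 and 55.3 to 107, 117 and 117 (0.99, SE 0.08), and the orphan receptor gene Gprc5b from 86.4, 85.2 and 87.3 to 228, 214 and 217. Edn3, the ligand endothelin-3, had the fewest scaled exon reads at 12 h of the 20, with 5.66, 5.14 and 8.33 against 13.4, 12.0 and 11.9 (0.89, SE 0.16; adjusted p = 7.56e-04). Pde2a, a phosphodiesterase of cyclic nucleotides, rose by 1.01 from 105, 108 and 98.4 to 213, 220 and 194. In none of these genes did the libraries of 0 h and 12 h overlap, which the naming rule required and which held for 20.3% of all tested genes.

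Transcription regulators came next. Tfeb, the master regulator of lysosomal genes, stood at 53.9, 45.7 and 51.3 at 0 h and at 128, 133 and 139 at 12 h (log2 1.39, SE 0.07; limma, adjusted p = 1.06e-11). Its textbook targets are lysosomal genes. Of 26 tested genes of the lysosome and the proton pump, Tfeb itself and Atp6v1a (log2 0.13) rose and Ctsb fell (−0.14). That count of 3 stands against 6.53% called of all tested genes. It was 1 without the first 0 h library or without the third 12 h library. Zfp750, a zinc finger regulator of the epidermis, rose from 34.9, 41.8 and 40.5 to 74.5, 84.1 and 73.5. Lmcd1, a LIM-domain cofactor, rose by 1.21, and Zfp92, a zinc finger gene, by 1.09 from 13.1, 15.4 and 13.4 to 32.2, 35.4 and 25.6. Prdm1, the repressor Blimp-1, lies under the expression minimum of the naming rule and was picked after its values were seen: it had 2.13, 2.34 and 3.02 scaled exon reads at 0 h and 8.14, 7.63 and 8.82 at 12 h (log2 1.40, SE 0.18).

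Adhesion, muscle and membrane genes complete the rises. Mybpc1, which binds myosin in slow muscle, had 25.9, 20.0 and 25.1 at 0 h and 56.2, 52.0 and 59.2 at 12 h (log2 1.21). Col17a1, the collagen of hemidesmosomes, rose from 27.6, 30.1 and 32.9 to 62.5, 57.7 and 54.1. Scn3a, a voltage-gated sodium channel, rose by 0.88 from 391, 442 and 436 to 750, 797 and 793 (SE 0.04; limma, adjusted p = 1.52e-11). Tmem255b, a transmembrane protein gene, rose by 1.46, Wipf3, a binding partner of WASP, by 0.95, Umodl1 by 0.93 and Iqck by 0.85. Iqck and Gprc5b overlap on opposite strands and counting used no strand, so reads of the shared stretch cannot be told apart; the same holds for Mest and Copg2. All 20 rises were called when any 1 of the 6 libraries was left out, the second 12 h library included, with a largest adjusted p of 0.0084 (limma), and all 20 were called by edgeR.

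**Figure D2:**
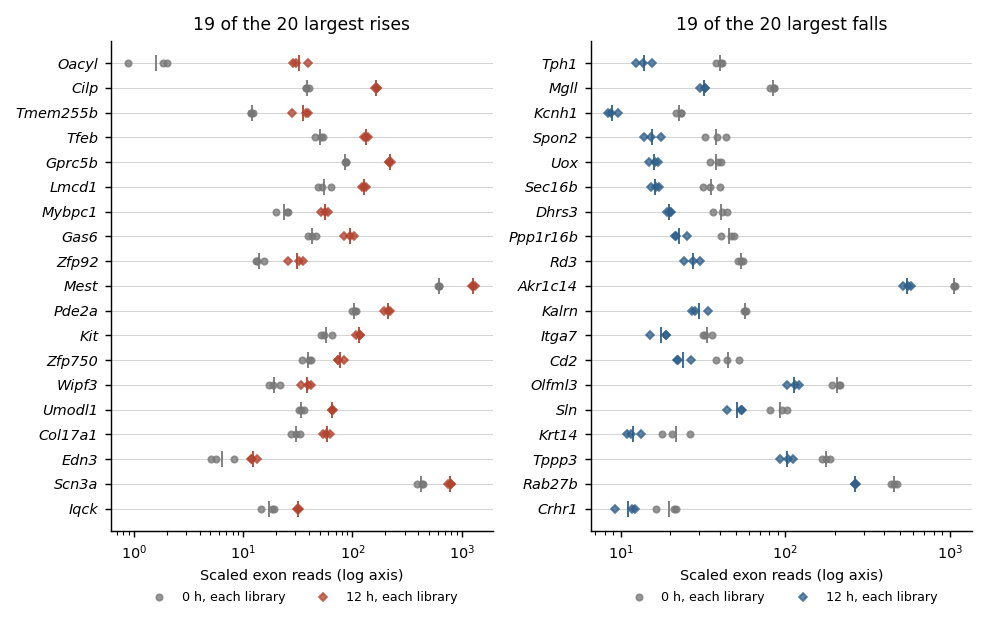
Scaled exon reads (log axis) in each library of 19 of the 20 highest rises and 19 of the 20 lowest falls. Grey circles are the 3 libraries at 0 h, diamonds the 3 at 12 h and ticks the group means. For each gene the 2 groups do not overlap, and the widest gap is that of Oacyl, from at most 2.01 at 0 h to at least 28.6 at 12 h.

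Among the 20 lowest falls, several were enzymes of small-molecule metabolism. Tph1, the rate-limiting enzyme of peripheral serotonin synthesis, stood at 38.1, 41.4 and 40.9 at 0 h and at 13.7, 15.4 and 12.4 at 12 h (log2 −1.47, SE 0.13; limma, adjusted p = 9.09e-08). Mgll, the lipase that degrades the endocannabinoid 2-arachidonoylglycerol, fell from 85.4, 80.4 and 85.6 to 30.4, 32.5 and 32.6 (−1.37, SE 0.14). The groups lie far apart: the highest 12 h library was at 15.4 for Tph1 and 32.6 for Mgll, under the lowest 0 h libraries at 38.1 and 80.4. Akr1c14, a hydroxysteroid dehydrogenase, fell from 1075, 1063 and 1058 to 557, 517 and 584 (−0.95, SE 0.06; adjusted p = 2.49e-10). Uox, which oxidises urate, fell by 1.21 to 16.1, 14.7 and 16.9, and Dhrs3, which reduces retinal, fell by 1.00 on the log2 scale, from a lowest value of 36.5 at 0 h to a highest of 20.2 at 12 h.

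Receptors, channels and adhesion molecules were among the other falls. Crhr1, the receptor through which corticotropin-releasing hormone acts on corticotropes, stood at 21.6, 16.4 and 20.9 at 0 h and at 11.7, 12.2 and 9.16 at 12 h (log2 −0.78, SE 0.14; limma, adjusted p = 0.00123). Kcnh1, a voltage-gated potassium channel, fell by 1.26 to 9.58, 8.68 and 8.38. Itga7, an integrin of laminin receptors, fell by 0.89, Spon2, a secreted matrix protein, by 1.24, Olfml3 by 0.86 and Cd2, an adhesion molecule known from T cells, by 0.88. Cd2 had the largest adjusted p of the 20 when 1 library was left out, at 0.0187. Kalrn, an exchange factor of small GTPases, fell by 0.91, Ppp1r16b by 0.97, Rd3 by 0.95, Sln, a regulator of the calcium pump, by 0.86, Krt14 by 0.80 and Tppp3 by 0.78. All 20 falls were called without any 1 of the 6 libraries and by edgeR.

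The 2 Rab27 genes moved in opposite directions. Rab27a, a GTPase that tethers granules to the plasma membrane, rose from 952, 909 and 955 to 1623, 1580 and 1499 (log2 0.74, SE 0.04; limma, adjusted p = 2.37e-10). Rab27b, its paralog, fell from 457, 439 and 478 to 265, 265 and 268 (−0.78, SE 0.05; adjusted p = 3.39e-10). Sytl4, granuphilin, an effector that links Rab27 to granule docking, fell from 1418, 1341 and 1393 to 1138, 1089 and 1070 (−0.33). In the list of 22 tested genes of peptide processing and granules, Rab27a was 1 riser against 9 falls (2.92% and 3.61% of all tested genes), and the median was −0.06 against 0.00 over all tested genes. The 8 other falls besides Sytl4 were smaller: Syt4 (−0.22), Ptprn (−0.20), Chga (−0.19), Snap25 (−0.18), Vgf (−0.17), Scg2 (−0.16), Chgb (−0.15) and Pcsk1 (−0.14), the convertase of corticotropes. Pcsk1 was at 9430, 9534 and 9218 before and 8602, 8491 and 8476 after, and its adjusted p was 0.0521 without the second 0 h library. Pcsk2, the convertase of melanotropes, rose from 189, 191 and 180 to 243, 238 and 234 (0.35). Of the 4 tested melanotrope genes, Pcsk2 and Oacyl were called higher, against 2.92% of all tested genes. Megf11 (−0.01) and Esm1 (−0.21) were not called (limma, adjusted p = 0.965 and 0.795), and Drd2 was too low to be tested. Pomc read 95370, 90200 and 93550 at 0 h and 85480, 82180 and 80380 at 12 h. Its groups do not overlap, but the difference of −0.17 was not called (adjusted p = 0.0582). With the replicate number as a block it was (adjusted p = 0.00843), as was that of the glucocorticoid receptor gene Nr3c1 (−0.12; adjusted p = 0.0662 without the block and 0.018 with it).

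Most tested enzymes of sterol synthesis fell. SREBP factors switch on the genes of this pathway when membrane sterol is low, and the Insig proteins hold those factors back. Of 21 tested enzymes from acetyl-CoA to cholesterol, 14 were lower and 0 higher, against 3.61% lower among all tested genes, and 19 lay below 0 with a median of −0.22 on the log2 scale. Hmgcs1, which makes HMG-CoA, stood at 4002, 4477 and 4351 at 0 h and 3252, 3139 and 2856 at 12 h (−0.47, SE 0.08; limma, adjusted p = 7.74e-04). Idi1, the isomerase of isopentenyl diphosphate, fell from 1338, 1603 and 1420 to 1117, 1121 and 1110 (−0.38, SE 0.06). The libraries of these 2 genes do not overlap between the groups. Before squalene, Fdft1 (−0.25), Acat2 (−0.22), Fdps (−0.21) and Pmvk (−0.19) were among the other falls, while Mvd (−0.24), Mvk (−0.21) and Ggps1 (0.06) did not pass the test. After squalene, Nsdhl (−0.32), Lss (−0.30), Cyp51 (−0.26), Msmo1 (−0.24), Sqle (−0.21) and Hsd17b7 (−0.21) were among those that fell, and Tm7sf2 (−0.23), Sc5d (−0.13), Ebp (−0.04) and Dhcr7 (0.01) did not pass. With the replicate block 17 of the 21 were lower, Mvk (adjusted p = 0.0324), Mvd (0.0445) and Sc5d (0.0391) included. Of the 14 calls, 7 held without any 1 library. The count of 14 was 9 without the second 0 h library and 8 without the third 12 h library. The count of 7 after squalene dropped to 4 without the second 0 h library and to 3 without the third 12 h library, and with no filter on low genes each part of the pathway kept 3 calls.

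Regulators and export genes of the same system moved both ways. Insig1 fell from 3903, 4027 and 3974 to 3522, 3318 and 3280 (log2 −0.23), while Insig2 read 390, 439 and 439 at 0 h and 493, 483 and 461 at 12 h (0.18), a call that was lost without the first 0 h, first 12 h or second 12 h library. The difference of Srebf2 was −0.09 and that of Srebf1 −0.03, and neither was called. Of 20 tested genes of fatty acid synthesis and desaturation, 8 fell and 0 rose (median −0.11), against 3.61% lower and 2.92% higher of all tested genes. Among them were Fads2 (−0.27), Elovl6 (−0.23), Aacs (−0.23), Scd1 (−0.22) and Acsl3 (−0.18). The count of 8 was 3 without the second 0 h library, 5 without the third 12 h library and 5 with no filter. Abca1, the sterol exporter induced by the LXR receptors, rose from 9.32, 12.0 and 10.5 to 18.0, 17.8 and 18.8 (0.73), the 1 call among 8 tested genes of sterol efflux, where the block gave 2. Stard4, a carrier of free sterol, rose by 0.21.

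Many chaperones of the endoplasmic reticulum (ER), where secreted proteins fold, fell. Of 21 tested ER chaperones and folding enzymes, 12 were lower and 0 higher, against 3.61% and 2.92% of all tested genes, with a median of −0.13 and 19 below 0. Hspa5, the main ER chaperone (BiP), read 14670, 14020 and 14150 at 0 h and 11960, 11380 and 11900 at 12 h (log2 −0.28, SE 0.04; limma, adjusted p = 2.37e-05). Creld2, a disulphide isomerase of the stress response, fell from 356, 357 and 331 to 281, 274 and 281 (−0.32, SE 0.04). In both genes every 12 h library was under every 0 h library. Manf (−0.24), Sdf2l1 (−0.26), Pdia6 (−0.22), Pdia4 (−0.19), Dnajc3 (−0.18) and Calr (−0.17) fell as well. These 8 were called without any 1 library. The other 4 calls, Ppib (−0.17), Txndc11 (−0.17), Hyou1 (−0.13) and Pdia3 (−0.12), were each lost without at least 1 library. The list kept 10 calls without the second 12 h library, and 15 of the 21 were lower with the replicate block.

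The sensors of unfolded protein changed in part. The counts in this paragraph stand against 3.61% lower and 2.92% higher among all tested genes. Xbp1, whose spliced form switches on chaperone and degradation genes, fell from 2551, 2565 and 2502 to 2177, 2225 and 2170 (log2 −0.21, SE 0.03; limma, adjusted p = 8.89e-05). Creb3l2 and Atf4 also fell, for 3 of 11 tested sensors and factors, and 2 of 12 tested genes of ER-associated degradation fell, Edem1 and Sel1l, of which 1 was called without the second 0 h or the first 12 h library. Of 22 tested targets of Atf4 in amino acid stress, 0 were lower and 1 higher, Cbs, with 0.241, 0.582 and 0.653 against 2.16, 1.15 and 1.81 scaled exon reads. The median of that list was −0.02, and Asns (−0.07), Trib3 (−0.05) and Ddit3 (−0.09) did not pass. Of the 20 tested cytosolic tRNA synthetases, 0 were called by limma, edgeR or DESeq2, and 1 had an unadjusted p under 0.05.

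Chaperone promoters carry a known element of the unfolded protein response, the ER stress response element (ERSE), to which ATF6 and XBP1 bind together with NF-Y. It was searched as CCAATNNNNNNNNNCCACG on both strands from 250 bases before to 50 after each RefSeq start (GRCm38.p6). It was found in the promoters of 20 of 11076 tested genes with a promoter in the RefSeq table (0.181%), and in 7 of the 17 chaperone genes that had one (41.2%). The windows below are those of the 5 chaperone genes with a match that fell and of the 2 with a match that were not called. Capitals mark CCAAT and CCACG, and each is printed on the strand that reads CCAAT first.
Hspa5, chr2:34772009-34772059, plus strand: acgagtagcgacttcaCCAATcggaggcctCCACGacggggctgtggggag
Creld2, chr15:88819504-88819554, minus strand: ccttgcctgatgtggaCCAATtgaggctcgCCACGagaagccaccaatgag
Pdia6, chr12:17266475-17266525, plus strand: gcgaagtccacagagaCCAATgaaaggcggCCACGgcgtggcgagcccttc
Dnajc3, chr14:118937811-118937861, plus strand: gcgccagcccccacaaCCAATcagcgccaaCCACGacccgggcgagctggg
Calr, chr8:84847059-84847109, plus strand: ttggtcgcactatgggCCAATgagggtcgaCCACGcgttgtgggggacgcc
Canx, chr11:50325784-50325834, minus strand: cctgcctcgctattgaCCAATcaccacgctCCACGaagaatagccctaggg
Hsp90b1, chr10:86705622-86705672, minus strand: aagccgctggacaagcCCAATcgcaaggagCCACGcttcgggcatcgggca
Hsp90b1, second match, chr10:86705517-86705567, plus strand: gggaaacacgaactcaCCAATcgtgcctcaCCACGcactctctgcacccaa

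All 8 windows share the 2 boxes, and the 9 bases between them differ in every window. Of the 20 genes with a match, 7 were lower at 12 h, 0 higher and 17 below 0, with a median log2 difference of −0.16. Of all 15188 tested genes, 3.61% were lower, 2.92% higher and 7497 below 0, with a median of 0.00. Only the 11076 genes with a promoter could have a match, so these values cover other genes as well and nothing is concluded from the contrast. The 20 include the 7 genes of the chaperone list, and 5 of the 7 lower genes are among those. The result is therefore not separate from the falls in that list. Beside the 5 printed ones, the lower genes were Acacb (−0.23), an acetyl-CoA carboxylase, and Spats2l (−0.22). Hsp90b1, with 2 matches, differed by −0.13 (limma, adjusted p = 0.0508) and Canx by −0.09 (0.149). With the replicate block both were called (0.0099 and 0.0431). Alg12 shares the window of Creld2, from which it is read in the opposite direction, and differed by −0.01. Syvn1, a ubiquitin ligase of ER-associated degradation, has a match and differed by 0.01. A match is a description of letters, not of a bound site. Promoters were at hand for 72.9% of all tested genes, 74.1% of the genes called higher, 72.1% of those called lower and 76.2% of the sterol genes. All of these are under the 80% set for comparing shares, while the chaperone genes reached 81%. Shares over the called and sterol sets are therefore void and not given. The 0.181% over all genes is likewise no valid measure to set against the 41.2% of chaperone genes. The searches for TAATNNATTA, TAATNNNATTA and TCACNCCAC, which found 20, 22 and 163 promoters of 11076, are not used further for that reason.

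Genes of the translocon and of transport out of the ER fell in smaller numbers. The counts here stand against 3.61% lower and 2.92% higher among all tested genes. Of 24 tested genes of the translocon and of signal peptide processing, 5 fell, with Ssr2 and Ssr4 at −0.17 and Ssr1 and Spcs3 at −0.13. This count was 2 without the first 0 h or the second 12 h library, 1 without the second 0 h library, 2 with no filter and 9 with the replicate block. Of 28 tested genes of ER-to-Golgi transport, 6 fell: Sec16b, an organiser of ER exit sites (39.9, 31.8 and 34.8 at 0 h and 15.3, 17.1 and 16.3 at 12 h; log2 −1.08), Kdelr3 (−0.51), Mia3 (−0.23), Sec24d (−0.21), Sec23a (−0.19) and Kdelr2 (−0.13). Without the third 12 h library 3 were called. Over chaperones, degradation, translocon and ER-to-Golgi transport, 25 of 85 tested genes fell and 0 rose, with 75 below 0 and a median of −0.09. Of all 15188 tested genes, 7497 were below 0, with a median of 0.00. The 25 include the 12 chaperone calls given above. The count of 25 was 20 without the second 12 h library and 15 without the second 0 h library.

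**Figure D3:**
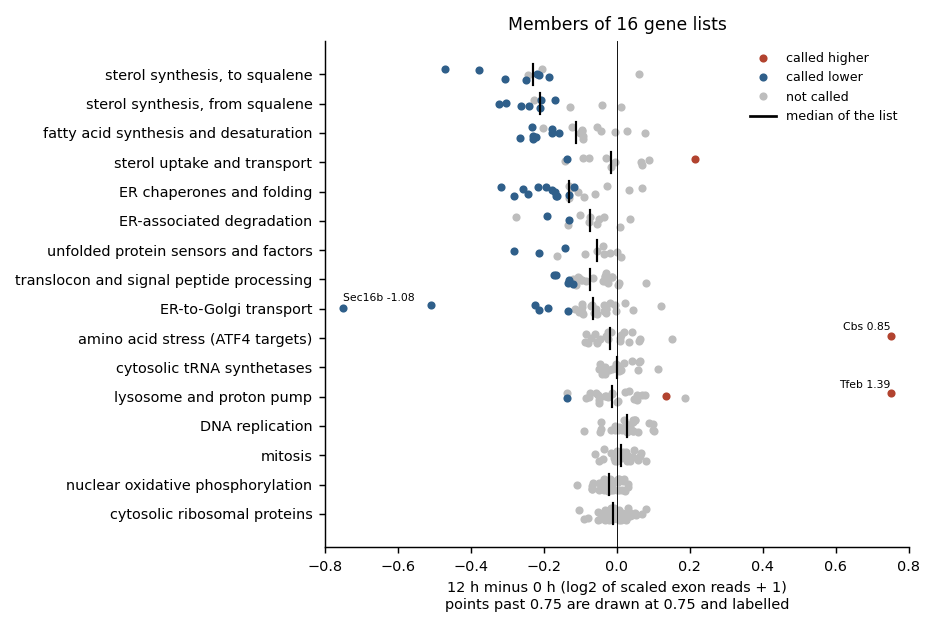
Log2 difference of 12 h minus 0 h for the tested members of 16 gene lists. Each point is a gene, red where called higher, blue where called lower and grey otherwise, and the black bar is the median of the list. Points past 0.75 in size are drawn at the edge and labelled with their value. The medians of the sterol lists lie at −0.23 before and −0.21 after squalene and that of the chaperones at −0.13, while no gene is called in DNA replication, mitosis, oxidative phosphorylation or ribosomal proteins.

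In growth and housekeeping lists no gene passed the test, against 6.53% of all tested genes. Of 214 tested genes of DNA replication, mitosis, cytosolic ribosomal proteins, nuclear oxidative phosphorylation, tRNA synthetases, glycolysis and hypoxia, and the circadian clock, 0 were called by limma, edgeR or DESeq2, and 15 had an unadjusted p under 0.05. Of all 15188 tested genes, 2558 had an unadjusted p under 0.05. The median of the 214 was −0.00. With the replicate block 1 of the 214 was called higher, and without the third 0 h library 2 were called. Single lists leaned both ways. Below 0 lay 6 of 24 tested genes of hypoxia and glycolysis (median 0.05), 7 of them with an unadjusted p under 0.05 in either direction. The same held for 7 of 28 genes of DNA replication (median 0.03) and 27 of 38 of oxidative phosphorylation (−0.02). In the list of chromatin regulators 4 of 36 tested genes rose and 0 fell, against 2.92% and 3.61% of all tested genes. The 4 were Ezh1, a histone H3 methyltransferase (510, 510 and 484 against 609, 648 and 602; log2 0.31), Tet3 (0.26), Rybp (0.24) and Chd7 (0.21). Ezh1 and Chd7 were called without any 1 library, and the list had 2 calls without the first 0 h, the second 12 h or the third 12 h library.

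Excitability and cyclic AMP genes moved both ways. Sodium channel subunits Scn2a1 (112, 102 and 124 against 137, 155 and 146; log2 0.37) and Scn3b (0.37) rose beside Scn3a, while Scn2b (−0.28) and the calcium channel subunit Cacna2d1 (−0.24) fell. Of 24 tested potassium channel genes, Kcnc1 (108, 111 and 117 against 155, 162 and 157; 0.49), Kcnip3 (0.45), Kcnma1 (0.25) and Kcnn3 (0.20) rose, and Kcnh1, Kcnk3 (−0.28), Kcnh6 (−0.27) and Kcnk1 (−0.13) were among the 5 that fell. The share called, 9 of 24, stands against 6.53% of all tested genes. In cyclic AMP signalling, Rgs4 (368, 390 and 394 against 505, 548 and 474; 0.40), the phosphodiesterase gene Pde4d (0.37), the kinase subunit gene Prkar2b (0.35) and the cyclase gene Adcy1 (0.18) rose and the anchor gene Akap12 fell (−0.47). These 5 calls of 26 stand against the same 6.53%, and all were kept without any 1 library.

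Early-response, Notch and lineage genes showed single changes, to be read against 6.53% called of all tested genes. Nr4a2, an orphan nuclear receptor that activates Pomc in corticotropes, fell from 349, 367 and 342 to 241, 251 and 225 (log2 −0.56, SE 0.05; limma, adjusted p = 2.83e-07). Its lowest library at 0 h lay above its highest at 12 h. In the same list of 23 tested immediate early genes, Jun (0.18) and Btg2 (0.13) rose, and the count of 3 was 1 without the first and 5 without the third 12 h library. The Notch ligand gene Dll1 rose from 14.7, 18.1 and 13.4 to 24.3, 25.1 and 22.1 (0.60), the Notch glycosyltransferase gene Mfng rose by 0.37, and Notch2 fell (−0.17), out of 18 tested. Sox2, of pituitary progenitors, fell by 0.29, a call lost without the third 0 h or the second 12 h library. Six6 fell by 0.20, and Gata2, of thyrotropes and gonadotropes, fell by 0.33, a call lost without the second 0 h library. Tbx19, the corticotrope regulator, differed by −0.04, Neurod1 by 0.12 and Pitx1 by 0.13, and none of the 3 was called.

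Matrix, epithelial and guidance genes also moved both ways. Of 27 tested genes of laminins, collagens, integrins and matrix, Cilp, Lamb3, Col18a1 (293, 287 and 290 against 369, 351 and 362; log2 0.31) and the integrin gene Itga6 (0.17) rose, and Spon2, Itga7, the laminin gene Lama5 (−0.28), Itgb5 (−0.18) and Thbs3 (−0.16) fell, for a share of 9 of 27 against 6.53% of all tested genes. Among 22 tested epithelial genes, Zfp750, the desmosome gene Pkp2 (0.29) and Elf3 (0.26) rose and Grhl2, an activator of epithelial junction genes, fell from 33.2, 37.1 and 33.1 to 23.4, 22.3 and 20.1 (−0.63), all 4 of them called without any 1 library. Plxnd1, a semaphorin receptor, fell from 150, 143 and 157 to 100, 106 and 97.1 (−0.57; limma, adjusted p = 1.27e-05), with Efna3 (−0.63), Sema5a (−0.26) and Nrp1 (−0.18) also lower and the receptor gene Ephb2 (0.22) higher among 29 tested guidance genes. The shares called, 18.2% of the epithelial genes and 17.2% of the guidance genes, stand against the same 6.53%. With the replicate block 8 of the 29 guidance genes were called.

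Growth factor and hormone lists held single calls, to be read against 6.53% of all tested genes. Of 13 tested genes of IGF and insulin signalling, Igfbp4 (−0.63), Irs4 (−0.18) and Pik3r1 (−0.14) fell and Foxo1 rose (0.32). Ccnd1, cyclin D1, fell from 45.3, 46.3 and 46.6 to 29.4, 35.7 and 30.5 (log2 −0.52; limma, adjusted p = 0.00173), the 1 call among 11 tested CDK inhibitors and D cyclins. Of 7 tested oestrogen targets, Igfbp4 and Cxcl12 (−0.18) fell and 0 rose. Of 11 tested glucocorticoid targets, Errfi1 rose (0.27) and Sgk1 fell (−0.18).

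Some of the small changes rest on single libraries. The call was lost without the second 12 h library in Atf4, Btg2, Chgb, Ctsb, Fdps, Frs3os, Hyou1, Insig2, Kcnk1, Kdelr2, Msmo1, Pmvk, Ppib, Rybp, Scn2b, Sox2, Spats2l, Spcs3, Ssr1, Ssr4, Tet3, Thbs3 and Tomm6os. It was kept without that library but lost without at least 1 other in Aacs, Acacb, Acat2, Atp6v1a, Cbs, Cxcl12, Efna3, Fads2, Gata2, Hsd17b7, Itgb5, Jun, Kdelr3, Notch2, Nsdhl, Pcsk1, Pdia3, Pik3r1, Ptprn, Scd1, Sec23a, Sel1l, Sgk1, Txndc11 and Vgf. Acacb and Sgk1 were lost only without the second 0 h library, Jun only without the first 12 h library and Nsdhl only without the third 12 h library. The other called genes named here, in either direction, were called without any 1 of the 6 libraries.

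Several of the named genes have called neighbours on the chromosome. This was seen in the data first and then counted over all genes, and the neighbours named here were picked after their values were known. Positions are those of mm10. Next to Tfeb (chr17:47737037-47792416), Pgc lies 2559 bases away and rose from 2.71, 1.87 and 1.47 to 6.17, 7.95 and 4.52 (log2 1.25; limma, adjusted p = 2.87e-04). Prickle4 (0.75), Frs3os (0.60), Frs3 (0.51) and Tomm6os (0.24) rose within 46 kb, while Tomm6 (0.10), Usp49 (0.08) and Foxp4 (−0.22) were not called. Frs3os lies within Frs3 on the opposite strand, and Tomm6os overlaps Prickle4 and Tomm6 on the strand opposite to theirs. Counting used no strand, so reads of these shared stretches cannot be told apart and the rises are not separate. Tmem255b (chr8:13435459-13461451) lies between Gas6, 3923 bases away, and Grk1, 13510 bases away, which rose from 2.60, 3.85 and 3.19 to 8.76, 12.6 and 8.15 (1.35), and Tfdp1, the next gene, differed by 0.01. Beside Cilp (chr9:65265180-65280605), Parp16 rose from 89.9, 94.4 and 79.9 to 148, 140 and 144 (0.70) and Clpx by 0.20, and Pdcd7 differed by 0.03. Scrn1, 5048 bases from Wipf3 (chr6:54452883-54503768), rose from a mean of 581 to 868 (0.58, SE 0.04).

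Over all genes, 397 of those called higher had a tested neighbour within 100 kb that does not overlap them. Of these, 105 (26.4%) had a neighbour called higher and 33 (8.31%) a neighbour called lower, while 9.68% of all 14004 genes with a tested neighbour had one called higher. Of the 460 called lower, 104 (22.6%) had a neighbour called lower and 36 (7.83%) one called higher, against 11.6% of all genes with one called lower. Among the 20 highest rises, 9 of the 17 with a tested neighbour (52.9%) had one called higher, and among the 20 lowest falls 3 of 17 (17.6%) had one called lower. Without 1 library the 9 became 6 to 8 (35.3% to 47.1%) and the 3 became 2 or stayed at 3. The pattern was seen in the data before it was counted, so these counts are no check of it. With neighbours at least 5 kb away the shares were 22% against 8.89% for genes called higher and 19.4% against 10.7% for genes called lower. Left-out libraries lowered the number of genes called, and with it the 105: it was 90 without the first 0 h library (27.3% against 7.93% of all genes), 58 without the second 12 h library (18.2% against 7.73%) and 52 to 64 without each of the others (18.7% to 19.6% against 6.31% to 7.96%). The 104 became 57 without the second 0 h library (17.6% against 8.27%), 58 without the third 12 h library (17.5% against 8.33%), 66 without the first 0 h library (17.2% against 9.47%) and 82 to 89 without the others.

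**Figure D4:**
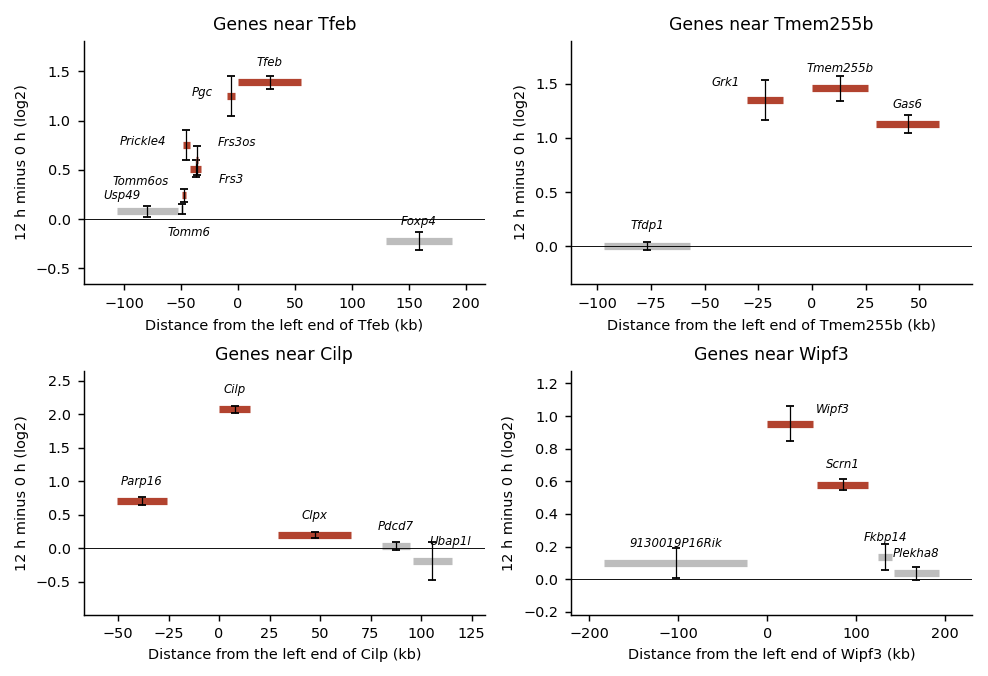
Tested genes around Tfeb, Tmem255b, Cilp and Wipf3. The x axis is the distance in kb from the left end of the named gene, bars span each gene, the y axis is the log2 difference of 12 h minus 0 h and whiskers are standard errors. Called neighbours lie on both sides of Tmem255b and Cilp and on 1 side of Tfeb and Wipf3, and genes near 0 such as Tfdp1 (0.01), Pdcd7 (0.03) and Plekha8 (0.04) stand in the same windows.

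Few genes were called between 24 h and 12 h, in a comparison that shares the 12 h libraries. Between 24 h and 12 h, 24 genes were called (0.158% of 15188): 11 higher and 13 lower. With the replicate block there were 53 (0.349%), 13 higher and 40 lower, and without the first 24 h library 11. Of the 20 highest rises at 12 h, 4 were called higher again at 24 h. Oacyl went on from a mean of 32.7 to 65.9 at 24 h and 119 at 96 h (24 h minus 12 h: log2 1.00; limma, adjusted p = 0.0017), Cilp from 165 to 262 and 427, Mybpc1 from 55.8 to 97.4 (0.80, adjusted p = 3.6e-05), and Umodl1 from 65.3 to 86.9 and 117. Tfeb, by contrast, had means of 133 at 12 h, 133 at 24 h and 138 at 96 h. Of the 20 lowest falls, Rab27b alone was called again (24 h minus 12 h: −0.26, adjusted p = 0.018).

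Outside the 20, Pcsk2 (0.42), Lamb3, a laminin chain (0.58), and Rgs4 (0.37) were among the 11 genes called higher from 12 h to 24 h. Lamb3 itself had risen from at most 30.7 at 0 h to 53.2, 48.9 and 48.1 by 12 h. Of the genes that fell, Igfbp4, an IGF-binding protein with 776, 725 and 748 at 0 h and 498, 483 and 472 at 12 h, read 387, 397 and 393 at 24 h (24 h minus 12 h: −0.30; limma, adjusted p = 0.0017). Hspa5 stood at 12440, 12030 and 12260 at 24 h and at 14360, 14360 and 14320 at 96 h, the latter within its range at 0 h. Lss, of sterol synthesis, had 1316, 1396 and 1300 at 0 h, 1141, 1097 and 1012 at 12 h, 850, 1064 and 1015 at 24 h and 1373, 1235 and 1173 at 96 h.

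Constitutive Pax7 gives a comparison that shares no library with these. There, FPKM over whole gene bodies in 2 Pax7 libraries were set against 2 Neo libraries, and 4906 of 13393 tested genes (36.6%) were called, 2424 higher (18.1%) and 2482 lower (18.5%). Of 412 genes called higher at 12 h and tested in both, 286 (69.4%) were higher and 13 (3.15%) lower with constitutive Pax7, against 18.3% and 18.8% of the 12992 genes tested in both. The 286 are 12.0% of the genes higher with constitutive Pax7. Of 474 called lower at 12 h, 214 (45.1%) were lower and 93 (19.6%) higher, and the 214 are 8.74% of the genes lower with constitutive Pax7. Without 1 of its 4 libraries the constitutive comparison had fewer calls, and the shares in the same direction were 37.1% to 47.8% of the genes called higher (against 4.98% to 8.73% of all) and 23.6% to 28.7% of those called lower (against 4.79% to 8.14%). Scaled to library totals, which moves the median of all genes there by 0.07, the 45.1% became 34.2% against 9.36% of all, with 22.2% higher against 19.6%.

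Among larger changes the directions were alike in most genes. The counts below stand against 18.3% higher and 18.8% lower of all genes tested in both. They use all 4 libraries of the constitutive comparison, which had fewer calls without 1 of them. Of 69 genes higher at 12 h by over 0.5 on the log2 scale and tested in both, 56 were higher and 0 lower with constitutive Pax7, and of 72 lower by over 0.5, 54 were lower and 3 higher. Of the 20 highest rises, 17 of 18 tested were higher. Zfp92, with 1.09 at 12 h, differed by 4.09 in the constitutive comparison, Mybpc1 by 2.85, Mest by 2.46 and Kit by 2.10. Of the 20 lowest falls, 13 of 15 tested were lower, and the other 2 were Spon2 (0.04) and Krt14 (0.32), neither of them called. The 3 genes past 0.5 with opposite calls, named after their values were seen, were Iapp, Cyp1a1 and AU021092. Iapp, the gene of the peptide hormone amylin, fell from 45.3, 52.2 and 47.6 to 27.0, 28.7 and 27.9 at 12 h (log2 −0.77, SE 0.12; adjusted p = 2.59e-04) and had means of 27.1 at 24 h and 15.4 at 96 h, while it was higher by 3.26 with constitutive Pax7. Cyp1a1 (−0.61 at 12 h and 0.39) and AU021092 (−0.53 and 0.52) follow at smaller size, and Cntfr, the receptor of ciliary neurotrophic factor, was called the other way round (0.37 and −0.82).

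**Figure D5:**
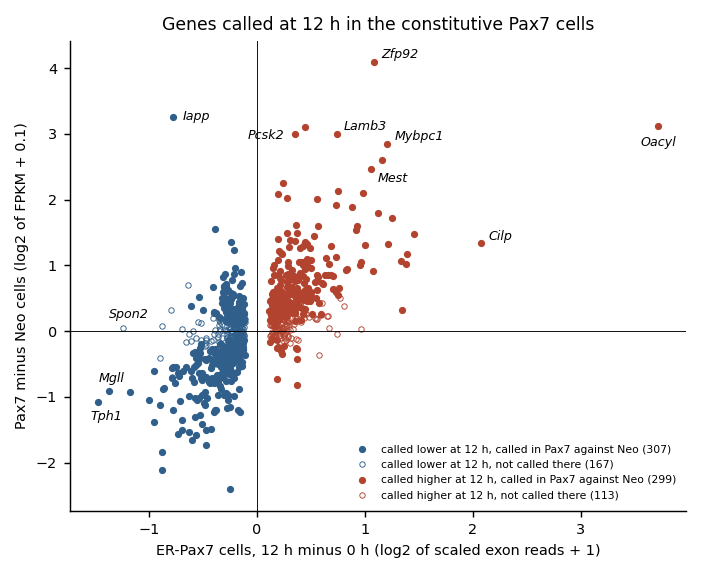
Genes called at 12 h and tested in both comparisons. The x axis is the log2 difference of 12 h minus 0 h in ER-Pax7 cells, the y axis that of Pax7 minus Neo cells (log2 of FPKM + 0.1), and filled points are also called in the latter. Of 412 genes on the right, 299 are called on the y axis, 286 of them above 0, and of 474 on the left, 307 are, 214 of them below 0. Iapp lies alone at the upper left.

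Many sterol and chaperone genes that fell at 12 h were higher with constitutive Pax7. Of the 14 sterol enzymes lower at 12 h, 9 were higher and 0 lower with constitutive Pax7, where 13 of the 21 were higher (median 0.27, against 18.1% of all tested genes called higher). Lss differed by −0.30 at 12 h and by 0.68 with constitutive Pax7, and Cyp51 by −0.26 and 0.62, while Hmgcs1 (−0.14) was not called there. Of 21 chaperone genes, 16 were higher and 1 lower with constitutive Pax7 (median 0.32). Of the 12 lower at 12 h, 9 were higher and Dnajc3 was lower (−0.18). Hspa5 differed by 0.68, Pdia6 by 0.57 and Calr by 0.43. Without 1 of the 4 libraries, 6 to 8 of the 21 sterol genes and 9 to 12 of the 21 chaperone genes were called higher. The difference between the 2 systems was not tested, since their tables have different units.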

How the data were processed

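Groups and replicate numbers came from the labels. The members and gene lists were chosen with earlier results of these data known. Per the submitters' processing notes, TopHat, HOMER and edgeR were used with GRCm38 (mm10), without versions. The deposited ER-Pax7 signal values are reads over exons of RefSeq genes, counted by the authors with HOMER without a strand option and scaled to a common total, per the file headers. The authors deposited Neo and Pax7 values as FPKM over gene bodies, per the file headers. The log2 fold, p-value and FDR columns in the authors' deposited table come from edgeR, per the file headers. The authors' deposited table calls 434 genes at 12 h at an FDR under 0.05, 430 of them called here in the same direction.

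These are not raw counts, so limma 3.58.1 (R 4.3.3) was used on log2(value + 1) in place of a count test, after TMM factors (edgeR 4.0.16), for 15188 of 24063 genes with a value of at least 1 in 3 libraries, with Benjamini-Hochberg adjustment and a threshold of 0.05. FPKM had a pseudocount of 0.1 and a minimum of 0.1 in 2 libraries. Values printed are divided by the TMM factors. An exact permutation test of 3 against 3 libraries cannot go below p = 0.1 and was not used. Whole reads recovered from the scaled values of 11 libraries gave the edgeR and DESeq2 1.42.0 alternatives, which estimate the spread between libraries. They also gave the depths, 61.4 M to 88.7 M, which bear on counting error only. Deviations from group means of same-numbered 0 h and 12 h libraries correlated over 12416 genes with r = 0.247, 0.194 and 0.133. No label says that the numbers pair the libraries. The main fit therefore ignores the numbers, and the replicate block, which treats them as pairs, is given as an alternative. Genes named are the 20 highest and 20 lowest called log2 differences with mean log2 CPM reaching 1, groups apart and a named symbol, up to 6 called members of each list and all pituitary markers; other names are given as uncalled list members or as picked after their values were seen. Some genes under this rule are not reported here. Promoters are from RefSeq (GRCm38.p6). Scripts were tested on simulated data.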

Additional observations from a re-analysis of the deposited data

How the results depend on the processing

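The 992 calls at 12 h stayed between 706 (without the second 0 h library) and 1246 (with the replicate block), and 537 were called without any 1 of the 6 libraries. Over the named genes and the alternatives, 2453 results kept direction and side of the threshold, 167 were no longer called, 14 became called and 0 reversed. The block, which treats same-numbered libraries as pairs, made Pomc, Nr3c1, Mvk, Mvd, Sc5d, Hsp90b1 and Canx called and changed no other call of a gene named here. For 24 h against 12 h it gave 53 calls, 40 of them lower, and leaving out 1 library gave 11 to 31 calls, 7 to 13 higher and 4 to 18 lower. Constitutive Pax7 against Neo depended most on the setting: without 1 library 1390 to 2277 genes were called (687 to 1189 higher, 657 to 1088 lower), and library totals gave 2599 higher and 1241 lower. There same-numbered libraries share only a number (r = 0.0375 over 13393 genes), and the block gave 3305 calls. The causes of these shifts were not tested. The folds of genes with few reads depend on the pseudocount: 14 genes were called with at least 2-fold at 5 times the pseudocount and 45 at the smaller one.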
